A study of Mus musculus with 30 samples.

Results

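Lymphotoxin is a pair of secreted and surface cytokine chains of the tumour necrosis factor (TNF) family, encoded by Lta (lymphotoxin alpha) and Ltb (lymphotoxin beta). The probe sets of both genes were taken from a custom Affymetrix array through the RefSeq accession in their names. This gave 2 of the 374 named genes, read by 3 of the 746 probe sets tested and 752 in all. Ltb has 1 probe set, NM_008518_at. Lta has 2, NM_010735_x_at and NM_010735_s_at, and the brighter of them, NM_010735_x_at, stands for Lta unless the other is named.

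RNA came from lymphocytes of male C57Bl/6 mice aged 6 to 10 weeks, and the study's title concerns the remodelling of glycans during T-cell activation. The 30 arrays form 10 groups of 3, with CD4 and CD8 T cells and B cells each purified from spleen cells. For each T-cell subset there were 3 cultured groups, grown in IL-2 (4 ng/ml) alone or together with either IL-4 (10 ng/ml) or IL-12 (5 ng/ml), and 1 group purified from uncultured, fresh spleen cells. B cells came from spleen cells cultured with IL-4 at 10 ng/ml and anti-IgM at 10 ug/ml, an antibody that engages the B-cell antigen receptor, and from fresh spleen cells. No allele other than those of the strain is named in the labels. The labels of the T-cell arrays name B cells beside the T-cell subset, and each array was taken as the subset in its title. Whether the T cells received any stimulus beyond the cytokines is not given in the sources used here, and 72 hours is noted for 4 of the cultured arrays. Every cultured group received a cytokine, so activation and culture cannot be told apart. Whether arrays of 1 group stand for separate mice or cultures is not stated, and the p-values therefore measure array-to-array spread only.

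Lymphotoxin alpha is made by activated lymphocytes and is secreted as a homotrimer that binds the TNF receptors. Together with the membrane-anchored beta chain it forms the surface heterotrimer that binds the lymphotoxin beta receptor, Ltbr, on stromal and myeloid cells. Signalling through that receptor builds and maintains lymph nodes and the follicles of the spleen, and it induces adhesion molecules and the chemokines that place B and T cells.

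Both genes lie on mouse chromosome 17 in the major histocompatibility complex, with Tnf between them, and in the GRCm38.p6 annotation the order of genes is Lst1, Ltb, Mir6973a, Tnf, Lta, Mir6974. The windows from 250 bases before to 50 bases after each gene's start are shown because these neighbouring genes changed in opposite directions in T cells and in 1 direction in B cells. They are RefSeq sequences of that build, chr17:35205302-35205601 on the minus strand for Lta and chr17:35194257-35194556 on the plus strand for Ltb, and capitals mark the matches found.
Lta: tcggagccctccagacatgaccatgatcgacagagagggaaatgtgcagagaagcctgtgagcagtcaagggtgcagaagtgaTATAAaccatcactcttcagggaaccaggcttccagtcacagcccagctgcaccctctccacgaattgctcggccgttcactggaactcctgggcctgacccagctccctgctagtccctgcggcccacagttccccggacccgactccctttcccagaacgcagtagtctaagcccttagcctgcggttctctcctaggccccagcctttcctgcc
Ltb: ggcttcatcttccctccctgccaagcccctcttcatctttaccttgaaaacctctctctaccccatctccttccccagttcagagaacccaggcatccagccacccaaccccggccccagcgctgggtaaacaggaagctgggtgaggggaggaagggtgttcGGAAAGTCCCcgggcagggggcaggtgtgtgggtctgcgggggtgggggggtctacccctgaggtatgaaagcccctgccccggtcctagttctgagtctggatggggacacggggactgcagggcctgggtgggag
The motifs searched on both strands were the kappaB consensus by its name, TATAA, the ETS core CGGAAG and the GC box GGGCGG. The Lta window holds TATAA from 167 to 163 bases before the start, a word found in 24.9% of the 32851 promoter windows of the table. The Ltb window holds 1 kappaB match on the opposite strand, from 87 to 78 bases before the start, and 4.51% of windows hold such a match. CGGAAG is in 16.9% of windows and GGGCGG in 35.7%, and neither is in the Lta or the Ltb window.

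The authors' signals ran from 1 to 69827.5 over all probe sets, with array medians from 115 to 204, and no detection call was used. The 3'/5' signal ratio of the control probe sets was 0.876 to 1.15 for Actb and 0.746 to 1.04 for Gapdh on the 21 cultured arrays, against 1.03 to 7.62 for Actb and 1.04 to 4.97 for Gapdh on the 9 fresh arrays. The highest ratios came from the fresh CD4 array of title letter C. The summed signal of 3 measured B-cell markers (Cd22, Fcer2a, Cxcr5) was 8401 to 14659 in cultured B cells and 20124 to 24976 in fresh B cells. In T cells it was at most 1010.4 on any cultured array, against 1897 to 2679 on fresh CD4 and 1169 to 3076 on fresh CD8 arrays. Of the T-cell markers only Cd2 and Il7r were measured, so the split into CD4 and CD8 could not be checked, and they summed to 1669 to 3328 in fresh B cells, 11463.5 to 16261 in fresh CD8 cells and 7229 to 14606 in fresh CD4 cells. The experiment files of 22 arrays carry a letter and digit, which match the title on 20. The codes of the CD8 IL-2/IL-4 array of letter C and the CD8 IL-2/IL-12 array of letter D are exchanged, and results on CD8 cells were also computed without these 2 arrays. Scans fell into 6 periods over 14 days apart, and values within a period are given where it holds both groups.

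**Figure D1:**
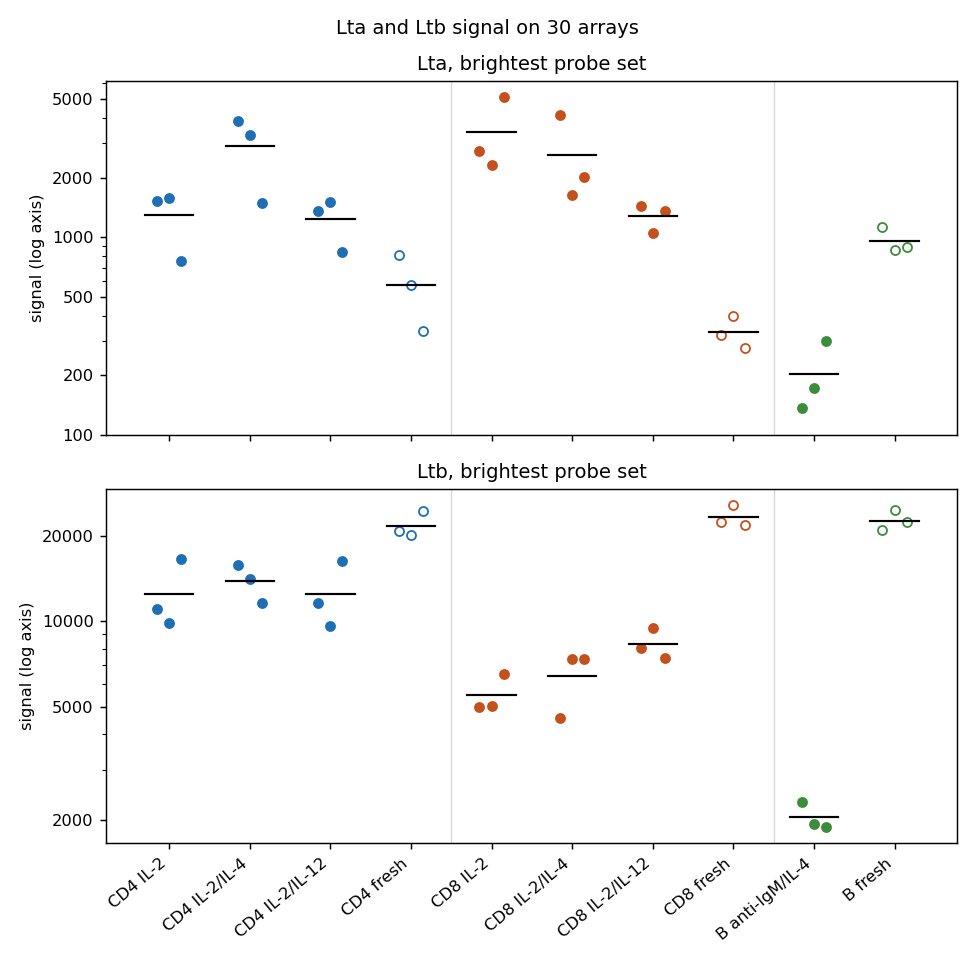
Signal of Lta (top, brighter probe set) and Ltb (bottom) on each of 30 arrays, log axis, by group, with cultured groups left of their fresh group, filled points for cultured and open points for fresh cells, and bars at the mean of 3 arrays. Lta is highest in CD8 IL-2 cells at a mean of 3400.5 and lowest in B anti-IgM/IL-4 cells at 203, and Ltb is highest in the 3 fresh groups, at 20106 or more on every array.

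Ltb was among the brightest probe sets of every fresh population. Its signal was 20788, 20106 and 24434.5 in fresh CD4 cells, 22400.3, 25645 and 21791 in fresh CD8 cells and 20952, 24651 and 22439 in fresh B cells, and it ranked first of the 746 probe sets on all 6 fresh T-cell arrays and 2nd on the fresh B-cell arrays. These 3 groups overlapped with one another, and every array of them lay above every cultured array. Here and below, overlap of arrays is a description only, and its share over all 746 probe sets was not counted. By mean log2 signal the order below the fresh groups began with CD4 IL-2/IL-4, CD4 IL-2/IL-12 and CD4 IL-2. CD8 IL-2/IL-12, CD8 IL-2/IL-4 and CD8 IL-2 followed, and B anti-IgM/IL-4 was last. Of the 9 steps between neighbours in that order 4 had arrays that did not overlap: fresh CD4 to CD4 IL-2/IL-4, CD4 IL-2 to CD8 IL-2/IL-12, CD8 IL-2/IL-12 to CD8 IL-2/IL-4, and CD8 IL-2 to B anti-IgM/IL-4.

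Lta had another order. Its mean log2 signal was highest in CD8 IL-2 cells, followed by CD4 IL-2/IL-4, CD8 IL-2/IL-4, CD8 IL-2/IL-12, CD4 IL-2, CD4 IL-2/IL-12, fresh B, fresh CD4, fresh CD8 and B anti-IgM/IL-4 cells. Of the 9 steps 2 had no overlap, CD8 IL-2/IL-4 to CD8 IL-2/IL-12 and fresh B to fresh CD4 cells, and the other 7 neighbours could not be separated by their arrays. The highest single value was 5149 (CD8 IL-2, letter L) and the lowest 137.5 (B anti-IgM/IL-4, letter G).

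The probe sets of Lta ranked the groups alike but differed in brightness. Over the 10 group means of log2(signal + 16) their Pearson correlation was 0.97, and over the 30 arrays, which include the group differences, it was 0.87. The signal of NM_010735_x_at was 1.05 to 16 times that of NM_010735_s_at, with a median of 3.69. The suffixes _x_at and _s_at mark probes that other transcripts may share, so a part of either signal could come from a related transcript, whereas the Ltb probe set has no such suffix.

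**Figure D2:**
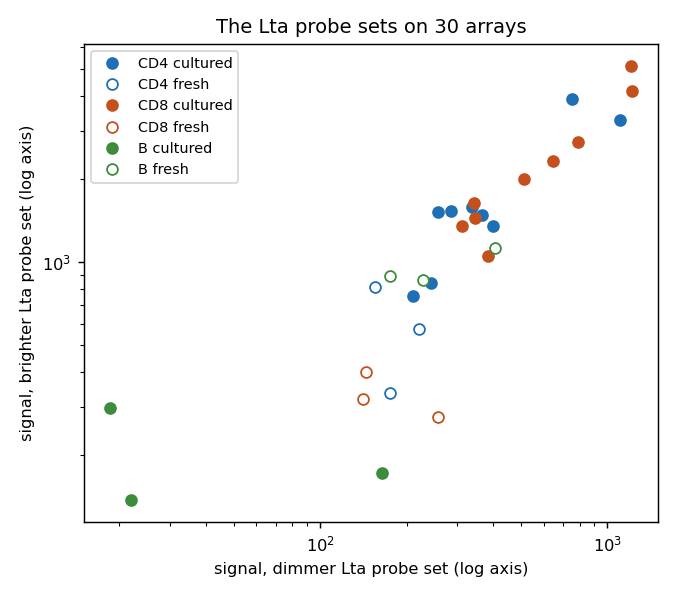
Signal of the brighter Lta probe set against the dimmer one on each of 30 arrays, both axes log, coloured by cell type, with filled points for cultured and open points for fresh cells. Over all 30 arrays, B cells and group differences included, the correlation is 0.87. The cultured B-cell arrays lie at the low end, 2 of them at 18.6 and 22 on the dimmer probe set.

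In CD8 cells culture raised Lta and lowered Ltb. Lta had signals of 2721, 2331 and 5149 with IL-2, 4169, 1645 and 2008.5 with IL-2/IL-4 and 1446, 1056 and 1355 with IL-2/IL-12, against 320.0, 401 and 277 in fresh CD8 cells. All 9 cultured arrays lay above all 3 fresh arrays. Ltb had signals of 4985, 5026 and 6556 with IL-2, 4561, 7387 and 7387 with IL-2/IL-4 and 8078, 9476 and 7413 with IL-2/IL-12, against 22400.3, 25645 and 21791 in fresh CD8 cells. Here all cultured arrays lay below all fresh arrays, the closest being 9476 with IL-2/IL-12 and 21791 in fresh cells.

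The mean of the 3 cultured CD8 groups differed from fresh cells by a log2 change of 2.64 ± 0.35 for Lta (SE; 6.25-fold; limma adjusted p = 1.58e-06) and -1.82 ± 0.21 for Ltb (3.52-fold lower; adjusted p = 2.27e-07). In this comparison 20.8% of all 746 probe sets passed an adjusted p of 0.05, and Lta and Ltb were 32nd and 18th in the order of p. Both genes also passed in each cytokine condition against the same 3 fresh arrays. With IL-2, where 16.1% of probe sets passed, Lta changed by 3.22 (95% interval 2.34 to 4.10) and Ltb by -2.08 (-2.60 to -1.56). With IL-2/IL-4, where 18.1% passed, the changes were 2.81 (1.93 to 3.68) and -1.88 (-2.40 to -1.36). With IL-2/IL-12, where 14.6% passed, they were 1.90 (1.03 to 2.78; adjusted p = 0.0019) and -1.49 (-2.01 to -0.96; adjusted p = 0.000107). The dimmer Lta probe set rose less, by 1.61 over the cultured CD8 groups (adjusted p = 0.00555), and it did not pass with IL-2/IL-12 (0.93, adjusted p = 0.278).

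Within scan periods the CD8 changes kept their direction. In the period with 5 cultured and 2 fresh arrays Lta changed by 2.51 and Ltb by -1.87, and in the period with 1 array of each, cultured with IL-2/IL-4, by 3.64 and -2.29. By condition in the first of these periods Lta and Ltb changed by 2.86 and -2.24 with IL-2, by 2.39 and -1.68 with IL-2/IL-4 and by 2.07 and -1.55 with IL-2/IL-12. The summed B-cell markers were 353 to 593 on cultured CD8 arrays and 1169 to 3076 on fresh ones. Of these markers 3 of 3 passed as lower, beside 78 of all 746 probe sets. The summed myeloid markers (Itgax, Cd33, Siglec1, Siglece) were 170.1 to 357 on cultured CD8 arrays and 771 to 1293 on fresh ones, and 1 of 4 passed as lower. The lowest value of the table is 1, so no marker was listed at 0, and the part of these cells in the Lta and Ltb changes was not tested. In bulk RNA, fewer cells that express a gene and less RNA per cell cannot be told apart.

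In CD4 cells, too, Lta was higher and Ltb lower with culture. Lta had signals of 1533, 1582 and 757 with IL-2, 3887, 3278.5 and 1488 with IL-2/IL-4 and 1354, 1516.5 and 843 with IL-2/IL-12, against 812, 573 and 337 in fresh CD4 cells. The only cultured array below a fresh one was that of CD4 IL-2 with letter L (757), under the fresh array of letter A (812). Ltb had signals of 11104, 9847.5 and 16537 with IL-2, 15846, 14066 and 11652 with IL-2/IL-4 and 11571, 9661.5 and 16312 with IL-2/IL-12, against 20788, 20106 and 24434.5 in fresh CD4 cells. All 9 cultured arrays lay below the 3 fresh arrays.

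Over the 3 cultured CD4 groups Lta changed by 1.52 ± 0.35 on the log2 scale (SE; 2.87-fold; limma adjusted p = 0.00168) and Ltb by -0.77 ± 0.21 (1.71-fold lower; adjusted p = 0.0068), while 21.6% of all probe sets passed. Each condition was also set against the same 3 fresh arrays. With IL-2 alone, where 17.2% of probe sets passed, Ltb fell by 0.83 (adjusted p = 0.0238) and Lta did not pass (1.16, adjusted p = 0.0635). With IL-2/IL-12, where 15.7% passed, Ltb again fell by 0.83 (adjusted p = 0.0245) and Lta did not pass (1.13, adjusted p = 0.0764). With IL-2/IL-4, where 21.2% passed, Lta rose by 2.27 (adjusted p = 0.000282) and Ltb did not pass (-0.66, adjusted p = 0.0693), although its arrays did not overlap with the fresh ones.

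The calls for the pooled CD4 cultures were lost under some settings. With the mean 3'/5' ratio as a covariate Lta changed by 1.09 (adjusted p = 0.157) and Ltb by -0.59 (adjusted p = 0.213), and the dimmer Lta probe set gave 0.997 (adjusted p = 0.0961). Centring each array on its median moved Ltb to -0.46 (adjusted p = 0.186) and the median of all probe sets to 0.18, against -0.13 as deposited. The only scan period with both groups held 1 array of each, cultured with IL-2/IL-4, and gave 2.24 for Lta and -0.39 for Ltb. The summed B-cell markers were 469.5 to 1010.4 on cultured CD4 arrays and 1897 to 2679 on fresh ones, and the summed myeloid markers were 148 to 630.4 on cultured and 1823 to 2777 on fresh CD4 arrays. Of these markers 3 of 3 and 2 of 4 passed as lower, beside 85 of all 746 probe sets. Their part in the result was not tested.

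In B cells both chains fell. Lta had signals of 137.5, 173 and 298 in anti-IgM/IL-4 cultures, against 1131, 865 and 893 in fresh B cells. Ltb had signals of 2315, 1937 and 1887 in the cultures, against 20952, 24651 and 22439 in fresh B cells, and no array overlapped between the groups for either gene. The log2 change was -2.22 ± 0.42 for Lta (SE; 4.66-fold lower; limma adjusted p = 0.000842) and -3.46 ± 0.25 for Ltb (11-fold lower; adjusted p = 5.25e-10), where 9.79% of probe sets passed. Ltb had the smallest p of the 746 probe sets in this comparison, and its rank by brightness was 36 to 46 in the cultures and 2 in fresh B cells. The dimmer Lta probe set fell as well (adjusted p = 0.00699), by a size that depends on the pseudocount of 16, since 2 of its 3 cultured values were 18.6 and 22.

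Each of 3 scan periods held 1 cultured and 1 fresh B-cell array. Within them Lta changed by -2.90, -2.22 and -1.53 and Ltb by -3.17, -3.66 and -3.56. The summed B-cell markers were 8401 to 14659 in cultured and 20124 to 24976 in fresh B cells. All of them were estimated lower, Cd22 by -1.17, Cxcr5 by -1.26 and Fcer2a by -0.93. Only Cd22, 1 of 3, passed as lower, beside 48 of all 746 probe sets. The summed T-cell markers were 946 to 1011 in cultured and 1669 to 3328 in fresh B cells. Of them 1 of 2 passed as lower, Cd2 (-1.51, limma adjusted p = 0.00555). The summed myeloid markers were 306 to 501 in cultured and 824.5 to 1823 in fresh B cells. Of them 2 of 4 passed as lower, Cd33 (-1.98, limma adjusted p = 0.0177) and Itgax (-2.12, adjusted p = 0.0252). Siglece (-1.47, adjusted p = 0.144) and Siglec1 (0.76, adjusted p = 0.537) did not pass. The only NK-cell marker measured, Klrd1, passed as lower (-1.33, adjusted p = 0.0473). Of 2 platelet and endothelium markers 1 passed as lower, the platelet chemokine Pf4 (-1.98, adjusted p = 0.0278). The other, Sele, did not (0.26, adjusted p = 0.904). Their part in the result was not tested.

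**Figure D3:**
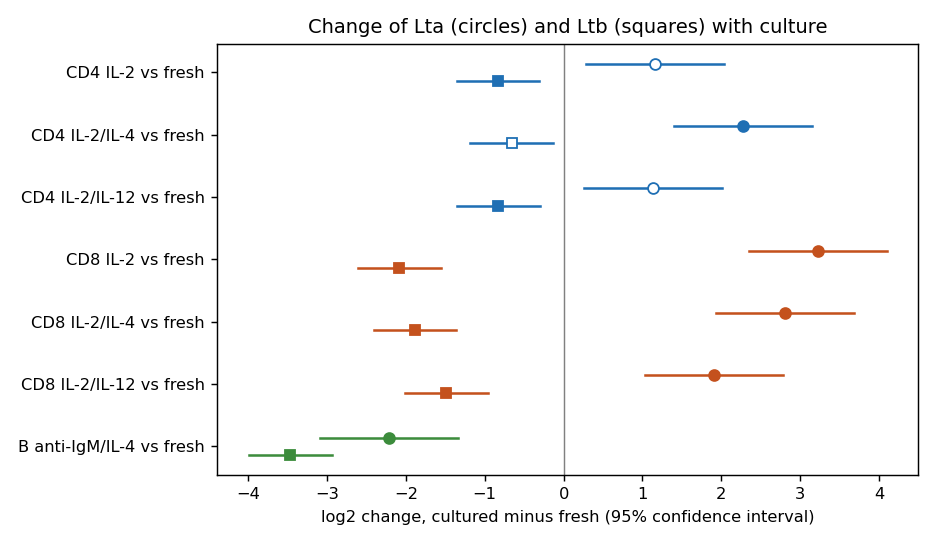
Log2 change of Lta (circles) and Ltb (squares) in each cultured group against the fresh cells of its type, with 95% confidence intervals from the limma model. Filled symbols have an adjusted p under 0.05. Lta lies right of 0 in all 6 T-cell groups (1.13 to 3.22) and left of it in B cells (-2.22), and Ltb lies left of 0 in all 7 groups (-0.66 to -3.46).

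The change of Lta with culture differed between B cells and both T-cell subsets. It was lower in B cells than in CD4 cells by 3.74 on the log2 scale (-3.74 ± 0.55 SE; adjusted p = 6.63e-05), where 8.04% of probe sets passed, and than in CD8 cells by 4.86 (-4.86 ± 0.55; adjusted p = 1.37e-06), where 10.2% passed. Ltb fell more in B cells than in CD4 cells (-2.69 ± 0.33; adjusted p = 1.04e-05) and than in CD8 cells (-1.65 ± 0.33; adjusted p = 0.00126). After quantile normalization the Ltb difference between B and CD8 cells was -0.79 (adjusted p = 0.159). Between CD8 and CD4 cells, where 4.02% of probe sets passed, the fall of Ltb was larger in CD8 cells by 1.04 (-1.04 ± 0.29; adjusted p = 0.0444). That call was lost when 1 of 16 of the 24 arrays was left out (-1.13 to -0.97, adjusted p up to 0.16) and without the 2 arrays of exchanged code (-1.08, adjusted p = 0.0631). The rise of Lta did not differ detectably between CD8 and CD4 cells (1.13, 95% interval 0.11 to 2.14; adjusted p = 0.263).

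Adding IL-4 or IL-12 to IL-2 gave no call for either chain. For IL-4 in CD4 cells, where 0.804% of probe sets passed, Lta averaged 2884 ± 1247 with IL-2/IL-4 and 1291 ± 463 with IL-2 (SD, n = 3 each), a log2 difference of 1.11 (95% interval 0.24 to 1.99; limma adjusted p = 0.412). The higher values came from the arrays of letters A and B (3887 and 3278.5). In the scan period that held both groups, with 1 array of IL-2/IL-4 and 2 of IL-2, the difference was -0.07. Ltb differed by 0.17 (-0.35 to 0.70), and by 0.16 in that period. For IL-4 in CD8 cells limma called 0 of 746 probe sets (0%), with 28 at an unadjusted p under 0.05, and Lta and Ltb differed by -0.41 (-1.29 to 0.46) and 0.20 (-0.32 to 0.72), with -0.47 and 0.56 in the scan period that held 2 arrays of each.

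Of the 6 comparisons between cytokine conditions, IL-2/IL-12 against IL-2 in CD8 cells had the largest difference of each chain, and neither passed the threshold. Lta had 1446, 1056 and 1355 with IL-2/IL-12 and 2721, 2331 and 5149 with IL-2, and Ltb had 8078, 9476 and 7413 with IL-2/IL-12 and 4985, 5026 and 6556 with IL-2. Neither gene's arrays overlapped between these groups, Lta lying below and Ltb above. The share of all 746 probe sets without overlap was not counted, so this is a description only. The log2 differences were -1.32 for Lta (95% interval -2.19 to -0.44; limma adjusted p = 0.479) and 0.59 for Ltb (0.07 to 1.12; adjusted p = 0.749), and 0.268% of probe sets passed. The unadjusted p of Lta in the limma fit was 0.00483, 7th of the 746 probe sets. In the scan period with 1 IL-2/IL-12 and 2 IL-2 arrays the differences were -0.79 and 0.69, and in that with 1 of each they were -1.91 and 0.18. In CD4 cells IL-12 gave -0.03 for Lta (-0.90 to 0.85) and 0.004 for Ltb (-0.52 to 0.53), where 0.134% of probe sets passed, and -0.12 and 0.02 in the scan period with 2 arrays of each.

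Set against IL-2/IL-4, the IL-2/IL-12 condition was also not separated by the test. In CD4 cells, where 1.34% of probe sets passed, Lta differed by -1.14 (adjusted p = 0.287) and Ltb by -0.17 (adjusted p = 0.913), with overlapping arrays for both. In the only scan period that held both groups, with 2 IL-2/IL-12 arrays and 1 of IL-2/IL-4, the differences were -0.05 for Lta and -0.14 for Ltb. In CD8 cells, where 0.536% passed, Lta differed by -0.90 (adjusted p = 0.636) and Ltb by 0.40 (adjusted p = 0.862), and no arrays overlapped. These are the groups that hold the 2 arrays of exchanged code. With those arrays exchanged Lta differed by -0.59 and Ltb by 0.31 (adjusted p = 0.999 for each), and the arrays of both genes overlapped. In the scan period with 1 IL-2/IL-12 and 2 IL-2/IL-4 arrays the differences were -0.33 and 0.13. The CD8 IL-2/IL-4 arrays of letters B and C had the same Ltb signal of 7387.2, the only value these arrays shared over 752 probe sets.

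Fresh CD8 and CD4 cells had Ltb at 23279 ± 2072 and 21776 ± 2327 (SD, n = 3 each), a log2 difference of 0.10 (95% interval -0.43 to 0.62). Lta differed by -0.69 (-1.57 to 0.18; limma adjusted p = 0.581), and 1.61% of probe sets passed. The scan period with 1 array of each gave -1.30 for Lta and 0.11 for Ltb. After culture with IL-2 Ltb was 2.22-fold lower in CD8 than in CD4 cells (-1.15, adjusted p = 0.00644), where 3.22% passed, and with IL-2/IL-4 it was 2.18-fold lower (-1.13, adjusted p = 0.00599), where 3.89% passed. The arrays of the subsets did not overlap in either condition. The first call was lost without the CD4 IL-2 array of letter L (-0.93, adjusted p = 0.0782) and the second without the CD8 IL-2/IL-4 array of letter A (-0.89, adjusted p = 0.0858). With IL-2/IL-12, where 2.82% passed, Ltb differed by -0.56 (-1.08 to -0.04; adjusted p = 0.414). Lta differed by 1.37 with IL-2 (0.50 to 2.25; adjusted p = 0.0796), with no overlap, by -0.15 with IL-2/IL-4 and by 0.08 with IL-2/IL-12. Within scan periods the IL-2 groups differed by 0.69 for Lta and -1.06 for Ltb, and the IL-2/IL-12 groups by 0.01 and -0.39. The IL-2/IL-4 groups shared 2 periods, with differences of 0.10 and 0.29 for Lta and of -1.79 and -0.66 for Ltb.

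Fresh B cells had more Lta than fresh CD8 cells. Lta averaged 963 ± 146 in fresh B and 333 ± 63.1 in fresh CD8 cells (SD, n = 3 each), a log2 difference of 1.5 (95% interval 0.62 to 2.37; limma adjusted p = 0.0275), where 8.18% of probe sets passed. The call was lost when any of 5 of these 6 arrays was left out (adjusted p up to 0.0917, all but the fresh CD8 array of letter B), and the dimmer probe set gave 0.51 (adjusted p = 0.729). The scan period with 1 array of each gave 1.77 for Lta and -0.10 for Ltb. Against fresh CD4 cells, where 6.7% passed, Lta was 0.80 higher in B cells (-0.07 to 1.68; adjusted p = 0.366), with no overlap between arrays. Within the 3 scan periods these groups share Lta differed by 0.47, 0.58 and 1.36 and Ltb by 0.01, 0.29 and -0.12. Ltb in fresh B cells differed by 0.06 from fresh CD4 cells (-0.46 to 0.58) and by -0.04 from fresh CD8 cells (-0.56 to 0.49). After culture B cells had less of both chains than CD4 cells of the IL-2/IL-4 condition. Lta was 12.9-fold lower (-3.68, adjusted p = 2.92e-07) and Ltb 6.70-fold lower (-2.74, adjusted p = 1.14e-08) in anti-IgM/IL-4 B cells, where 20.5% of probe sets passed, and the scan period with 1 array of each gave -4.67 and -2.77.

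The balance of the chains was followed as Lta minus Ltb on the log2(signal + 16) scale. Each probe set has its own brightness per transcript, so a level of this value has no absolute meaning and its differences between groups are described without a test. In CD8 cells it was -0.77 ± 0.39 with IL-2, -1.39 ± 1.10 with IL-2/IL-4 and -2.68 ± 0.40 with IL-2/IL-12, against -6.07 ± 0.14 in fresh cells (SD, n = 3 each). In CD4 cells it was -3.30 ± 0.98 with IL-2, -2.36 ± 0.52 with IL-2/IL-4 and -3.33 ± 0.82 with IL-2/IL-12, against -5.29 ± 0.75 in fresh cells. In B cells it was -3.30 ± 0.67 in anti-IgM/IL-4 cultures against -4.54 ± 0.32 in fresh cells.

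Culture thus moved the balance toward Lta in all 3 cell types. The shift was 4.46 in CD8 cells (22-fold), 2.29 in CD4 cells (4.89-fold) and 1.24 in B cells (2.37-fold). No cultured array overlapped with the fresh arrays of its cell type. This is a description only, since how often other pairs of probe sets show it was not counted. In T cells the shift combined a rise of Lta with a fall of Ltb, and in B cells both fell and Ltb fell further. The dimmer Lta probe set gave 3.42 in CD8, 1.77 in CD4 and 1.34 in B cells. With it the B-cell arrays overlapped, at -5.94 to -3.44 in cultures and -6.88 to -5.63 in fresh cells. With a pseudocount of 1 its B-cell means were -5.60 in cultures and -6.48 in fresh cells. With 64 they were -4.16 and -6.15. On the brighter probe set Lta in cultured B cells was 137.5, 173 and 298, on arrays with medians of 138, 189 and 172. No detection call was used, and the part of a floor under Lta in the B-cell shift was not tested. Among cultured CD8 cells the IL-2/IL-12 arrays lay below the IL-2 arrays, at -3.15 to -2.44 with IL-2/IL-12 and -1.10 to -0.35 with IL-2, a difference of -1.91. Under IL-2 the CD8 arrays lay above the CD4 arrays by 2.52, without overlap, whereas the subsets overlapped in the other cultures and when fresh. With the dimmer Lta probe set the subsets did not overlap under IL-2/IL-12 either. There the arrays lay at -4.57 to -4.48 in CD8 and -5.98 to -4.80 in CD4 cells.

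**Figure D4:**
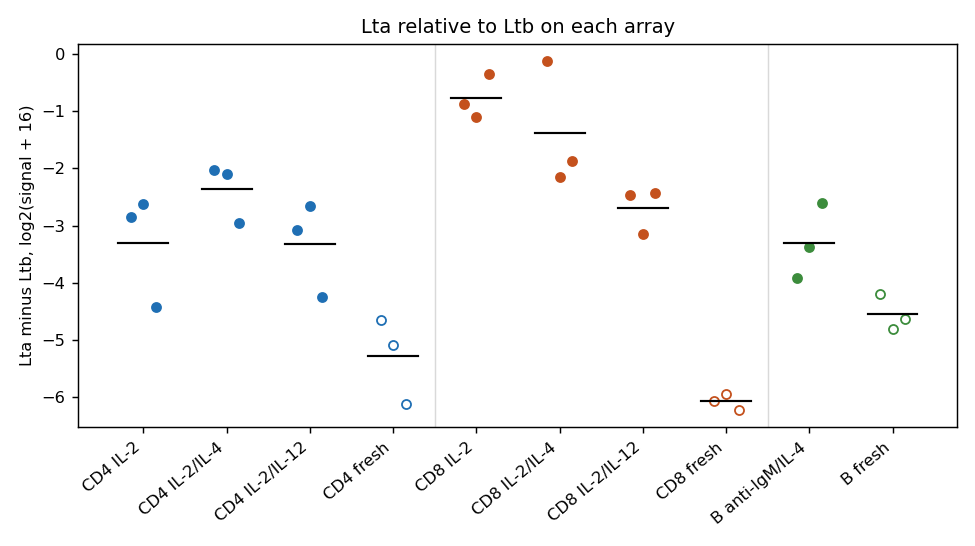
Lta minus Ltb on the log2(signal + 16) scale for each of 30 arrays by group, from the brighter Lta probe set, cultured groups left of their fresh group, with bars at the mean of 3 arrays. Every cultured array lies above the fresh arrays of its cell type, and the CD8 IL-2 arrays lie highest as a group, at a mean of -0.77.

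Genes of the same pathway were read from lists of receptors, TNF-family ligands, target genes and chemokine receptors, described by counts. Of 5 receptors of lymphotoxin and its relatives 1 was measured, Ltbr, the receptor of the heterotrimer. Its signal was dim, at group means from 6.83 to 66.4, and it passed only in B cells, at 8.53 ± 1.27 in anti-IgM/IL-4 cultures and 66.4 ± 45.8 in fresh cells (limma adjusted p = 0.0336). Its level in the cultures was below the pseudocount of 16, which sets the size of the fitted change, and no fold is given. Of 15 other TNF-family ligands 9 were measured, and Tnf was not among the named probe sets. In cultured CD4 cells their median change was 0.10, beside -0.13 over all probe sets. There 21.6% of all probe sets passed, with 85 of 746 passing as lower, and 2 of 9 ligands passed as higher and none as lower. Those were Tnfsf8 (CD30 ligand), at 4440.4 ± 1116 in cultured and 441 ± 55.0 in fresh cells, and Tnfsf4 (OX40 ligand), at 1274 ± 271 in cultured and 121 ± 77.5 in fresh cells. In cultured CD8 cells, with 20.8% passing and 78 of 746 passing as lower, 3 of 9 passed as higher and none as lower (median 0.44 beside -0.07). They were Tnfsf8 (1.51), Tnfsf4 (2.42) and Fasl, the ligand of the death receptor Fas (2.08). In cultured B cells, with 9.79% passing and 48 of 746 passing as lower, 2 of 9 passed as higher and none as lower (median 0.15 beside 0.09). They were Tnfsf8 (1.03) and Cd70, the ligand of CD27 (2.66).

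Of 12 genes known to respond to lymphotoxin signals in stromal cells 5 were measured, and Vcam1, an adhesion molecule for integrins, was the only one to pass, 1 of 5 in each cell type beside 21.6% of all probe sets in CD4, 20.8% in CD8 and 9.79% in B cells. It had 131 ± 34.4 in cultured and 3345 ± 1443 in fresh CD4 cells (22.2-fold lower). In CD8 cells it had 116 ± 73.7 in cultured and 1769 ± 157 in fresh cells (15.4-fold lower), and in B cells 296 ± 140 in cultured and 3169 ± 685 in fresh cells (10.7-fold lower). The myeloid marker Itgax was lower in the same comparisons, by 33.0-fold in CD4, 12-fold in CD8 and 4.36-fold in B cells. Of the 4 myeloid markers measured 2 passed as lower in CD4, 1 in CD8 and 2 in B cells, and 0 as higher. Those that did not pass were Siglec1 (0.06) and Cd33 (0.06) in CD4 cells. In CD8 cells they were Siglec1 (-0.71), Cd33 (-0.03) and Siglece (-0.21), and in B cells Siglec1 (0.76) and Siglece (-1.47). The part of myeloid cells in the Vcam1 change was not tested. Madcam1, Cxcl12, Cxcl13 and Fut7 did not pass in any of the 3 cell types. The medians of the 5 were -0.09 in CD4, -0.17 in CD8 and -0.02 in B cells, beside -0.13, -0.07 and 0.09 over all probe sets. Of the chemokine receptors, Cxcr5, which guides cells to follicles and is also a B-cell marker, fell in cultured CD4 (-1.77, adjusted p = 0.00351) and CD8 cells (-2.28, adjusted p = 0.000277), and Ccr7 passed in none.

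**Figure D5:**
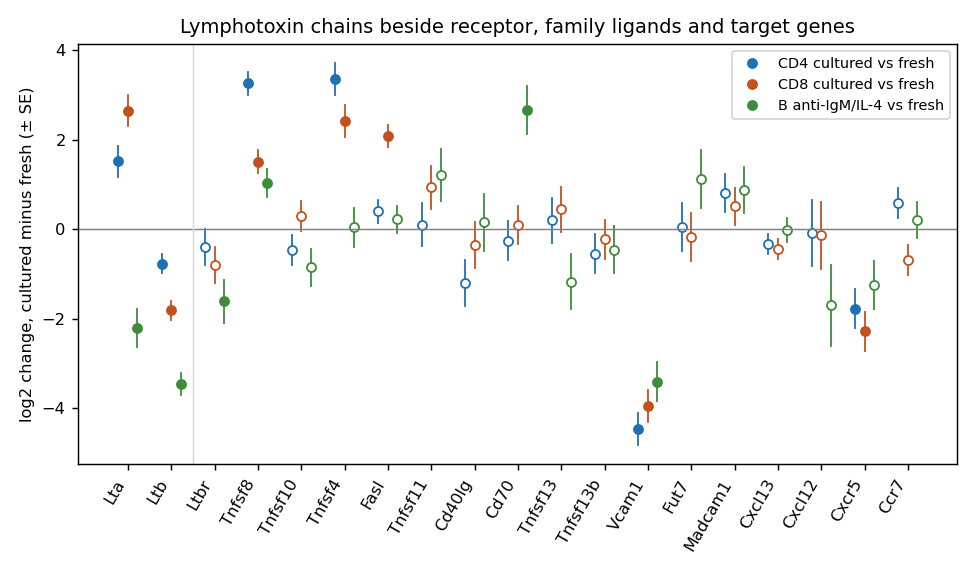
Log2 change with culture (cultured minus fresh, ± SE) of Lta and Ltb, left of the line, and of the measured receptor, family ligands, target genes and chemokine receptors, in CD4, CD8 and B cells. Filled points have an adjusted p under 0.05. Vcam1 lies lowest in all 3 cell types except for Ltb in B cells (-3.46 against -3.42). The fitted change of Ltbr in B cells depends on the pseudocount.

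Likeness across the groups was measured as the Pearson correlation of the 10 group means of log2(signal + 16), over 277 named genes bright enough in at least 1 group. The group means share arrays, scaling and the contrast of cultured with fresh cells, and the values are a description. Most like Lta were Il12rb2, a chain of the IL-12 receptor (0.83), and Psmc1, a proteasome subunit (0.83). Rpn2, a subunit of the oligosaccharyltransferase, came next (0.80). The least like was Reg1 (-0.88, and -0.54 over the 30 arrays). Reg1 varied little, with group means from 134.6 ± 22.4 in CD8 IL-2/IL-4 to 239.5 ± 106 in fresh CD8 cells (SD). Il12rb2 averaged 4630 ± 542 in CD8 IL-2 cells and 130 ± 63.1 in fresh CD8 cells, and 153 ± 18.4 in cultured and 148.5 ± 23.4 in fresh B cells. The genes most like Ltb were Itgb7, an integrin beta chain (0.84), Ccr2, a chemokine receptor (0.83), and Ccl5, a chemokine (0.82), and the least like was Chga (-0.83). Itgb7 averaged 1907 ± 136 in CD8 IL-2 cells and 7798 ± 1444 in fresh CD8 cells, and 628.5 ± 218 in cultured and 2205 ± 19 in fresh B cells. Lta and Ltb correlated at 0.05 with each other, and at 0.02 over the 30 arrays.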

How the data were processed

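RNA of 30 samples was hybridised to 1 array each. Each probe set has 1 linear intensity per array, as deposited by the authors. Which program summarised and scaled it is not given in the sources used here, and a custom Affymetrix design is named in the file headers. The 6 control probe sets for Actb and Gapdh were left out of the tests. Probe sets were named through RefSeq accessions in the GRCm38.p6 gene table, and a gene is read by its probe set of highest mean. Gene names cover 449 of the 746 tested probe sets.

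Values were transformed as log2(signal + 16), which understates changes of dim genes. The 10 groups entered 1 linear model (limma 3.58.1, R 4.3.3; lmFit, then eBayes) that left 20 degrees of freedom for the residual. Two-sided p-values were adjusted over 746 probe sets by Benjamini-Hochberg, and passing means an adjusted value under 0.05. Overlap of arrays between groups is described without a test, and its share over all probe sets was not counted. Errors of changes are moderated standard errors, whose precision is limited by the 3 arrays a group. Cultured T cells are the mean of 3 groups (9 arrays) against 3 fresh arrays. The fitting script was tested on simulated data.

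Lta and Ltb, the gene lists and the tests were chosen with earlier results of these data known. Likeness was computed over named genes with a highest group mean above the overall median, and the 3 highest and 1 lowest were named. Of the receptor, ligand, target and chemokine receptor lists all members past the threshold in cultured against fresh cells were named, with up to 4 others. Cell-type markers were summed, and only some of those past the threshold were named. Alternatives were pseudocounts of 1 and 64, removal of the dimmest 40% of probe sets, median centring, quantile normalization, scan day or scan period as a block, the title letter as a block, a covariate for the 3'/5' ratio, the other Lta probe set, and omission of each array. Omitting or exchanging the 2 arrays of conflicting code was added after seeing the data. Of 39 pairs of arrays that share a title letter 9 had deviations from their group means correlated over 0.1, so the letters were not taken as pairing. Those over 0.1 include fresh with cultured B cells of letters G (0.16) and K (0.17), the only letters these groups share. Fresh CD4 with fresh CD8 cells gave 0.20 for letter A, -0.02 for B and 0.36 for C. A pairing within these groups therefore remains possible. Figures were drawn with Python 3.11.15 and matplotlib 3.10.9.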

Additional observations from a re-analysis of the deposited data

Results flagged for a closer look

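The response to culture differed between cell types in 5 tests of the difference itself, each from the limma model with adjustment over 746 probe sets. The remaining test, Lta between CD8 and CD4 cells, did not pass (1.13, adjusted p = 0.263). Of all probe sets 8.04% passed between B and CD4 cells, 10.2% between B and CD8 cells and 4.02% between CD8 and CD4 cells. Lta changed in B cells by 3.74 less than in CD4 cells (-3.74) and by 4.86 less than in CD8 cells (-4.86), with a fall in B cells and a rise in both T-cell subsets. Within single scan periods Lta fell by 2.90, 2.22 and 1.53 in B cells, and it was higher by 2.24 in CD4 and by 2.51 and 3.64 in CD8 cultures. Ltb fell in all 3 cell types, and the difference was -2.69 between B and CD4 cells and -1.65 between B and CD8 cells. After quantile normalization the latter did not pass (-0.79, limma adjusted p = 0.159). The Ltb difference of -1.04 between CD8 and CD4 cells (adjusted p = 0.0444) was the closest to the threshold. Its call was lost on omission of any of 16 of the 24 arrays and under several of the other settings. The B-cell cultures held anti-IgM and IL-4, and all T-cell cultures held IL-2, so cell type and culture condition cannot be told apart in these differences.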

How the results depend on the processing

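The calls of Lta and Ltb in the pooled CD8 cultures and in cultured B cells held under every setting run, omission of single arrays included, with Lta at 1.61 to 2.84 in CD8 and -2.51 to -1.98 in B cells and Ltb at -2.04 to -1.62 in CD8 and -3.56 to -2.83 in B cells. For the pooled CD4 cultures Lta did not pass with the 3'/5' covariate (1.09) or the other probe set (0.997), and Ltb did not pass after median centring (-0.46), with scan day as a block (-0.74) or with the covariate (-0.59). In CD4 IL-2 cells Lta passed without the dimmest 40% (1.16), after centring (1.38), after quantile normalization (1.37) and with the scan period blocked (1.99), whereas Ltb did not pass after centring (-0.61), with scan day (-0.79) or with the covariate (-0.65). In CD4 IL-2/IL-12 cells Lta passed after centring (1.43), quantile normalization (1.33) and with scan period (1.96), and Ltb did not pass after centring (-0.53), with scan day (-0.78) or the covariate (-0.64). In CD4 IL-2/IL-4 cells Lta did not pass with scan day (1.80), and Ltb passed with a pseudocount of 64 (-0.66), without the dimmest 40% (-0.66) and after quantile normalization (-1.06). In CD8 IL-2/IL-12 cells Lta did not pass with the other probe set (0.93), and the balance of the chains in CD8 cultures was 3.42 with it. 

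Among cultured cells, the Lta difference of IL-4 in CD4 cells became -0.020 with scan day as a block, and that of IL-12 became 0.043 after centring and 0.094 with the other probe set, while Ltb became -0.14 after quantile normalization. Between CD8 and CD4 cells under IL-2, Lta passed with a pseudocount of 64 (1.34) and without the dimmest 40% (1.37), and Ltb did not after centring (-0.97) or with scan period (-0.96). Under IL-2/IL-4 Lta was 0.49 with scan day and 0.11 with scan period, and Ltb did not pass with scan day (-0.76). Under IL-2/IL-12 Lta was -0.43 with scan day, -0.51 with scan period and -0.0057 without the 2 arrays of conflicting code. Fresh B cells differed from fresh CD4 cells in Ltb by -0.49 after quantile normalization. From fresh CD8 cells they did not differ in Lta past the threshold after centring (1.39), with scan day (1.24), with scan period (1.2) or with the other probe set (0.51). The Ltb difference between CD8 and CD4 culture effects lost its call with a pseudocount of 1 (-1.05), centring (-1.17), quantile normalization (-0.84), scan day (-1.24), scan period (-0.96), and without or on exchange of the 2 arrays of conflicting code (-1.08 and -1.04), and that between B and CD8 cells with quantile normalization (-0.79). The causes were not tested.

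The title letter as a replicate block could be fitted for 20 of the 50 results, and the only call it changed was that Ltb difference between CD8 and CD4 cells (-1.08, adjusted p = 0.0507 with limma). As a random block it changed none of 50. Correlations between arrays of 1 letter ran from -0.13 to 0.36, with 9 of 39 over 0.1. 

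With 1 array left out at a time, Lta ran from 0.83 to 1.5 in CD4 IL-2 and from 0.80 to 1.42 in CD4 IL-2/IL-12 cells against fresh, passing in both when fresh letter A was omitted, and in the first also without IL-2 letter L. Ltb ran from -1.05 to -0.68 and from -1.04 to -0.66 in these comparisons and lost its call without fresh letter C or the cultured letters D or E. For IL-12 added to IL-2 in CD4 cells Lta ran from -0.37 to 0.22 and Ltb from -0.20 to 0.22. Between CD8 and CD4 cells Ltb ran from -1.30 to -0.93 with IL-2 and from -1.24 to -0.89 with IL-2/IL-4, and Lta from -0.57 to 0.12 with IL-2/IL-4 and from -0.17 to 0.25 with IL-2/IL-12. Between fresh B and fresh CD4 cells Ltb ran from -0.00091 to 0.15, and between fresh B and fresh CD8 cells Lta ran from 1.38 to 1.63 and Ltb from -0.099 to 0.035. The Ltb difference of culture effects between CD8 and CD4 cells ran from -1.13 to -0.97. 

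Of the settings run on all 50 results, scan day as a block changed the call or sign of 10, median centring of 9, and pseudocounts of 1 and 64 of 1 and 2. The scan-day block also took the Lta difference of IL-2/IL-12 against IL-2/IL-4 in CD4 cells to -0.0083. No detection call was used, and the dimmer Lta probe set was at 18.6 on a cultured B-cell array.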

Other observations

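The CD4 arrays of title letter L stood apart from the rest of their groups in Ltb and on the brighter Lta probe set. Their signal on that Lta probe set was 843 with IL-2/IL-12 and 757 with IL-2, the lowest of each group. Their Ltb signal was 16312 with IL-2/IL-12 and 16537 with IL-2, the highest of each group. On the dimmer Lta probe set letter L was at 243 with IL-2/IL-12, close to letter E (257) and below letter D (401). With IL-2 it was at 210.6 there, below letters D (286) and E (338). The CD4 arrays of letter L were the only arrays of 1 scan period. Within that period IL-2/IL-12 differed from IL-2 by 0.15 for Lta and by -0.02 for Ltb on the log2 scale. In CD8 cells the letter L arrays had a Lta signal of 1355 with IL-2/IL-12, inside the range of that group, and of 5149 with IL-2, the highest of its group.

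The dimmer Lta probe set averaged 348 ± 35.9 with IL-2/IL-12, 692 ± 466 with IL-2/IL-4 and 882 ± 288 with IL-2 in CD8 cells, against 181 ± 66.4 in fresh CD8 cells (SD, n = 3 each). In CD4 cells it averaged 300.2 ± 87.6 with IL-2/IL-12, 742 ± 370.02 with IL-2/IL-4 and 278 ± 64.2 with IL-2, against 184 ± 34.1 in fresh CD4 cells. In B cells it averaged 68.3 ± 83.2 in anti-IgM/IL-4 cultures, against 269.97 ± 121 in fresh cells.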
